A study of Mus musculus with 8 samples.

Results

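The genes described here are 39 genes of fibroblasts and of the interstitial matrix, the collagen, proteoglycan and elastic scaffold that lies between cells. They were taken by gene symbol from the 31228 genes of the deposited table, with earlier results of these data known. Each symbol matched 1 gene. The study compared epithelium of the mouse extrahepatic bile duct (BD) and of the pancreatic duct (PD), and organoids grown from each (BDO and PDO). All 8 samples came from C57BL/6 mice and none was genetically altered or used as a control. The labels name no age or sex, and do not say how many animals gave a sample. Each epithelium was 1 library of dissected, minced duct, digested with collagenase IV and put into Trizol. Each organoid group was 3 cultures at passages 3 to 4 in Matrigel, a basement membrane gel, with EGF, R-Spondin-1, Noggin, FGF10, nicotinamide, N-acetylcysteine and B27 in the medium. Wnt3A conditioned medium and Y27632 were withdrawn once organoids with a lumen had formed. The labels do not say that the 3 cultures came from separate animals, so p-values below measure only the spread between these cultures.

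Fibroblasts around ducts secrete type I and type III procollagen, which is trimmed outside the cell, assembled into fibrils and crosslinked by lysyl oxidases. Small leucine-rich proteoglycans such as decorin and lumican coat the fibrils and set their spacing, and elastin deposited on fibrillin microfibrils gives the duct wall its recoil. Matricellular proteins such as Sparc, periostin and the tenascins sit in the same matrix and act on cell adhesion. Duct epithelial cells rest on a basement membrane and are not known as a main source of fibrillar collagen, whereas epithelial cells in culture can make fibronectin.

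Values are given as deposited FPKM, that is reads scaled to exon length and to the library's total. Differences are given on the log2(scaled FPKM + 1) scale after scaling between libraries, a scale that understates the change of weakly expressed genes. Where 1 library stood on a side, a gene was counted as higher or lower only if it differed at least 2-fold and reached 1 FPKM in at least 1 library compared, and no p-value was computed. Read numbers recovered from FPKM and exon length implied 12876467 reads in BD, 15455992 in PD and 15405381 to 20828213 in the organoids, so that 1 read in a gene with 1 kilobase of exon was worth 0.0480 to 0.0777 FPKM. Intervals of 95% quoted on such reads are exact and cover counting error only. The exon lengths with which FPKM gave whole reads were taken from a gene annotation and joined all transcripts of a gene. They were, for example, 12426 bases for Col1a2 and 6563 for Col1a1. An order of levels between genes depends on such lengths.

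The libraries labelled as epithelia held RNA of many cell kinds. The 14 genes of an epithelial list summed to 2509 FPKM in BD and 555 in PD. Those of 12 smooth muscle and pericyte genes summed to 2314 and 3881, and those of 10 pancreatic acinar genes to 15752 and 31329. In the 6 organoids the epithelial list summed to 5272 to 11848 FPKM, the smooth muscle list to 6.84 to 15.2 and the acinar list to 2.44 to 9.14. In such bulk samples, fewer cells of a type and less RNA per cell cannot be told apart.

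All 39 genes were present in both epithelia. Each had at least 1 FPKM in BD and in PD, 37 had at least 10 FPKM in both and 13 had at least 100 FPKM in both. Together they took 1.36% of summed FPKM in BD and 1.72% in PD. In the organoids the same genes took 0.0288% to 0.190%, and between 5 and 9 of the 39 reached 1 FPKM in a culture. Mitochondrial genes took 24.9% of summed FPKM in BD and 18.8% in PD against 5.43% to 7.29% in the organoids. Without them the shares of the 39 genes were 1.81% in BD, 2.11% in PD and 0.0307% to 0.203% in the organoids. The heat map of all genes and libraries shows this as bright columns for the epithelia, dark columns for the organoids and a few rows that stay bright.

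**Figure D1:**
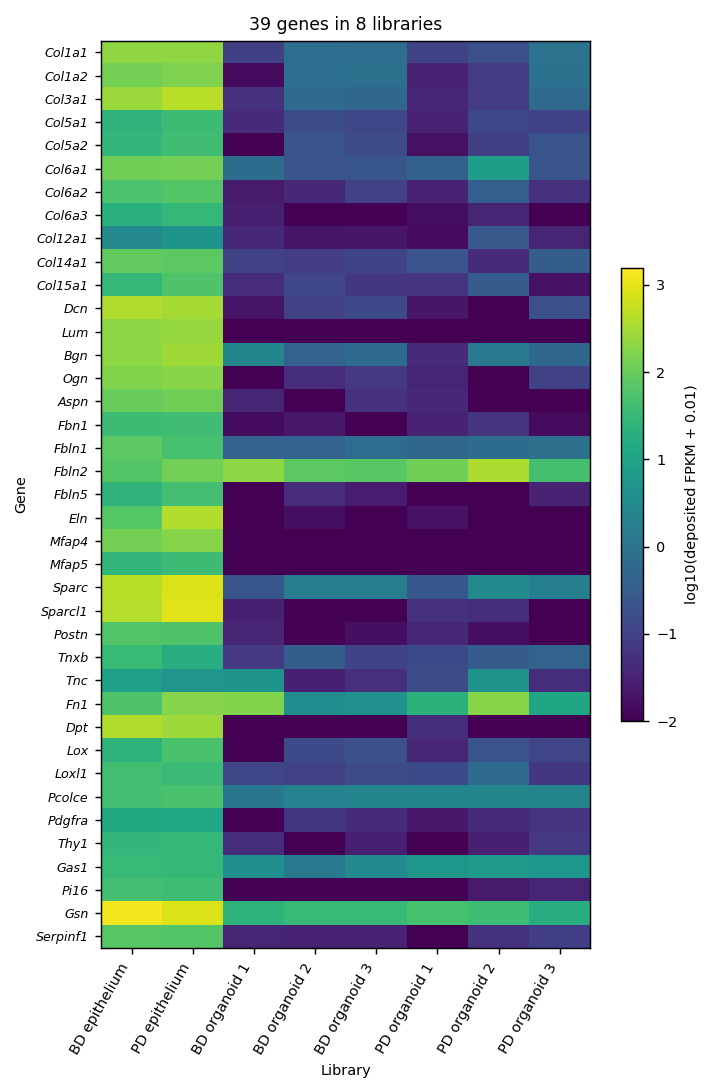
Deposited FPKM of the 39 genes (rows, ordered by role) in the 8 libraries (columns), as log10(FPKM + 0.01) on the colour scale, with dark colour for low values. Nearly all rows are high in both epithelia and low in the 6 organoids, while Fbln2 stays high in every library, at 46.5 to 359 FPKM in the organoids.

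To show what the genes look like upstream of their start, bases before it are printed for 4 genes that differ in how they behaved here. Col3a1 and Dpt were high in both epithelia and nearly gone from the organoids, Tnc was kept in 2 cultures, and Gas1 was kept in all 6. They come from the RefSeq promoter table for GRCm38.p6, in which 25 of the 39 genes were found with 32 windows, and hold only bases that lie before the gene start in both RefSeq and the deposited table. They run 5′ to 3′ on the gene's strand. Capitals mark matches, on either strand, to any of 5 motifs. These are the box that binds the TATA-binding protein, searched as TATAAA, the box of nuclear factor Y, searched as CCAAT, the GC box of Sp1, searched as GGGCGG, the AP-1 motif, searched as TGACTCA, and the TEAD motif, searched as GGAATG. None of the matches overlap each other here. The windows are chr1:45311288-45311537 on the plus strand for Col3a1, chr1:164796413-164796643 on the plus strand for Dpt, chr4:64047016-64047265 on the minus strand for Tnc and chr13:60177536-60177785 on the minus strand for Gas1. The first 3 windows end at the base before the gene start in the deposited table, and that of Gas1 ends 170 bases before it.
Col3a1: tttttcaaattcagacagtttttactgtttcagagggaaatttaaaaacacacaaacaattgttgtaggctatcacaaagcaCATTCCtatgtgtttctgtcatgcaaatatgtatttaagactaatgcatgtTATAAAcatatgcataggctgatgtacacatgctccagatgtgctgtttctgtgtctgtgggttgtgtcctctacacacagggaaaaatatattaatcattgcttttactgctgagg
Dpt: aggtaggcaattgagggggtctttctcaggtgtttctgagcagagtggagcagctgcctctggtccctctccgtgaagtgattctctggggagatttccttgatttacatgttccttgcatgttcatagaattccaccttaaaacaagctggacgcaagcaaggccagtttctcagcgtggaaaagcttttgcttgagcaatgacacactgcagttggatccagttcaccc
Tnc: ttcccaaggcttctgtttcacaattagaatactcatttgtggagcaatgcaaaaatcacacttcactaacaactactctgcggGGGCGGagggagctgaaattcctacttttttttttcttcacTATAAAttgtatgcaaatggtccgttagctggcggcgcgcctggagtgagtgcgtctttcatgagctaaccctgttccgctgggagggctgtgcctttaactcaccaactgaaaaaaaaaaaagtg
Gas1: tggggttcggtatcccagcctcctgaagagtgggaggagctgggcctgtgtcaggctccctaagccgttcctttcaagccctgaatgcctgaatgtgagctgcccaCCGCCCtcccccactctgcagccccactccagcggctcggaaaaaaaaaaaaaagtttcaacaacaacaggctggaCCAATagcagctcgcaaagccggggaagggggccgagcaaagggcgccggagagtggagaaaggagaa
The Col3a1 window held TATAAA 117 bases before its end and CATTCC, the TEAD letters on the other strand, 168 bases before it. The Tnc window held TATAAA at 126 bases and GGGCGG at 167, and the Gas1 window held CCAAT at 68 and CCGCCC, the GC box on the other strand, at 144. The Dpt window, of 231 bases, held none of the 5. Over the 250 bases before the start in all 32851 windows of the table, 12.4% held TATAAA, 33.8% held the letters CCAAT, 32.7% the GC box, 4.46% the AP-1 motif and 12.6% the TEAD motif. In the 32 windows of the fibroblast and matrix genes the shares were, in the same order, 18.8%, 25% (8 windows), 50% (16 windows), 6.25% and 9.38%. Positions are counted from the end of each window, and these matches describe letters only.

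The bile duct and pancreatic duct epithelia were compared first. Of the 39 fibroblast and matrix genes, 25 (64.1%) were within 1.5-fold, against 73.3% of all genes tested. None was at least 2-fold higher in BD, where 9.08% of 15092 genes were. Elastin, fibronectin, the Sparc relative Sparcl1, the crosslinking enzyme Lox and the collagen Col15a1 were at least 2-fold higher in PD, 5 of 39 (12.8%) against 4.64% of all genes. The median log2 difference, BD minus PD, was -0.25 over the 39 genes and -0.04 over all genes, with 13 genes above 0 and 26 below. With 1 library for each organ these differences have no replicate check. Without scaling between libraries Col15a1 was under 2-fold and the number was 4.

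The 5 fibrillar collagen genes encode the chains of types I, III and V. Col1a1, the major chain of type I collagen, had 219 FPKM in BD and 217 in PD, and its partner Col1a2 had 131 and 153. The Col1a1 levels were thus almost the same, and after scaling its PD to BD ratio was 1.01 (95% counting interval 0.991 to 1.03). This and the later ratios between the epithelia are of scaled values. Col3a1, the fibre-forming collagen of more elastic tissue, had 261 in BD and 438 in PD, a ratio of 1.71 (1.69 to 1.74). Col3a1 therefore stood at 1.19 times Col1a1 in BD and at 2.02 times Col1a1 in PD. The chains of type V collagen, which starts fibril assembly, had 24.3 and 36.0 FPKM for Col5a1 and 27.5 and 40.1 for Col5a2 in BD and PD. None of the 5 reached 2-fold. After scaling all 5 lay below 0, BD minus PD, with Col1a1 at -0.02, while in deposited FPKM Col1a1 was slightly higher in BD.

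Collagen VI forms beaded filaments around cells. Its chains Col6a1, Col6a2 and Col6a3 had 118, 53.7 and 20.3 FPKM in BD and 129, 63.6 and 29.4 in PD, so their order was the same in both organs. Of the collagens that lie on fibril surfaces, Col12a1 had 2.75 and 4.98 FPKM, the lowest of the 39 genes in either library, and Col14a1 had 87.9 and 76.6. Col15a1, a collagen of the zone between basement membrane and interstitium, had 28.8 FPKM in BD and 58.1 in PD. Its log2 difference of -1.02 lay just past the 2-fold line and its ratio was 2.06 (1.97 to 2.17).

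None of the 5 small leucine-rich proteoglycans reached 2-fold. Decorin (Dcn) had 378 FPKM in BD and 314 in PD, lumican (Lum) 203 and 236, and biglycan (Bgn) 205 and 290.2. Osteoglycin (Ogn) had 167 and 189, and asporin (Aspn) 99.5 and 118. Dcn was the sole member of the group that was higher in BD, by 1.18-fold.

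The widest difference among all 39 genes was in the elastic fibre group. Eln, which encodes elastin (ENSMUSG00000029675, chromosome 5, 134702593 to 134747323, minus strand, GRCm38), had 68.7 FPKM in BD and 395 in PD. This is a log2 difference of -2.54 and a ratio of 5.86 (5.72 to 6.01), from 7164 and 49387 reads. The genes of its scaffold were closer between the organs. Fbn1, fibrillin 1, had 36.6 and 39.9 FPKM, Mfap4 128 and 179, and Mfap5 28.3 and 36.6. Within a library Eln stood at 1.88 times Fbn1 in BD and at 9.88 times Fbn1 in PD. The fibulins, which link elastin to microfibrils and to basement membranes, went in different directions. Fbln5 had 24.6 FPKM in BD and 43.7 in PD, and Fbln2 65.5 and 125, a log2 difference of -0.95 just under 2-fold, whereas Fbln1 had 78.0 and 47.5. About 20.1% of the exon bases of Fbn1 overlap Gm9913 on the other strand, and the use of strand in counting is not given in the sources used here.

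The matricellular and adhesive genes were spread over the whole range. Fn1, which encodes the adhesive glycoprotein fibronectin (ENSMUSG00000026193, chromosome 1, 71585520 to 71653200, minus strand), had 58.4 FPKM in BD and 179.8 in PD, a log2 difference of -1.64 and a ratio of 3.14 (3.07 to 3.22). Sparcl1 had 420.4 and 933, a difference of -1.18 and a ratio of 2.27 (2.23 to 2.31). Its collagen-binding relative Sparc had 447 and 859, at -0.97 just short of 2-fold. Postn, periostin, was even at 60.8 and 59.2. The other 3 genes of the group were higher in BD. Tnxb, a tenascin of loose connective tissue, had 32.4 and 17.8 FPKM and the highest difference towards BD of the 39 genes, 0.81, a ratio of 1.79 (1.71 to 1.87). Tnc, a tenascin of remodelling tissue, had 8.46 and 5.14, and Dpt, the small collagen-binding protein dermatopontin, had 397 and 275.

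Among the enzymes, Lox, which crosslinks collagen and elastin, had 22.7 FPKM in BD and 50.9 in PD, a log2 difference of -1.17. Its relative Loxl1, which acts on elastin, had 41.8 and 35.6, and Pcolce, an enhancer of procollagen C-proteinase, had 44.4 and 51.9. The surface genes of fibroblasts were nearly level. The receptor Pdgfra had 14.2 and 12.9, the surface glycoprotein Thy1 27.8 and 29.1, and Gas1, a membrane-anchored growth arrest protein that also binds hedgehog, 32.1 and 28.7. Of the other secreted products, Pi16, a marker of adventitial fibroblasts, had 45.2 and 39.1, and Serpinf1, which encodes pigment epithelium-derived factor, 72.3 and 64.0. Gsn, the actin-severing protein gelsolin, had the highest FPKM of all 39 genes in BD, 1307, against 807 in PD, a BD to PD ratio of 1.59 (1.57 to 1.61).

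**Figure D2:**
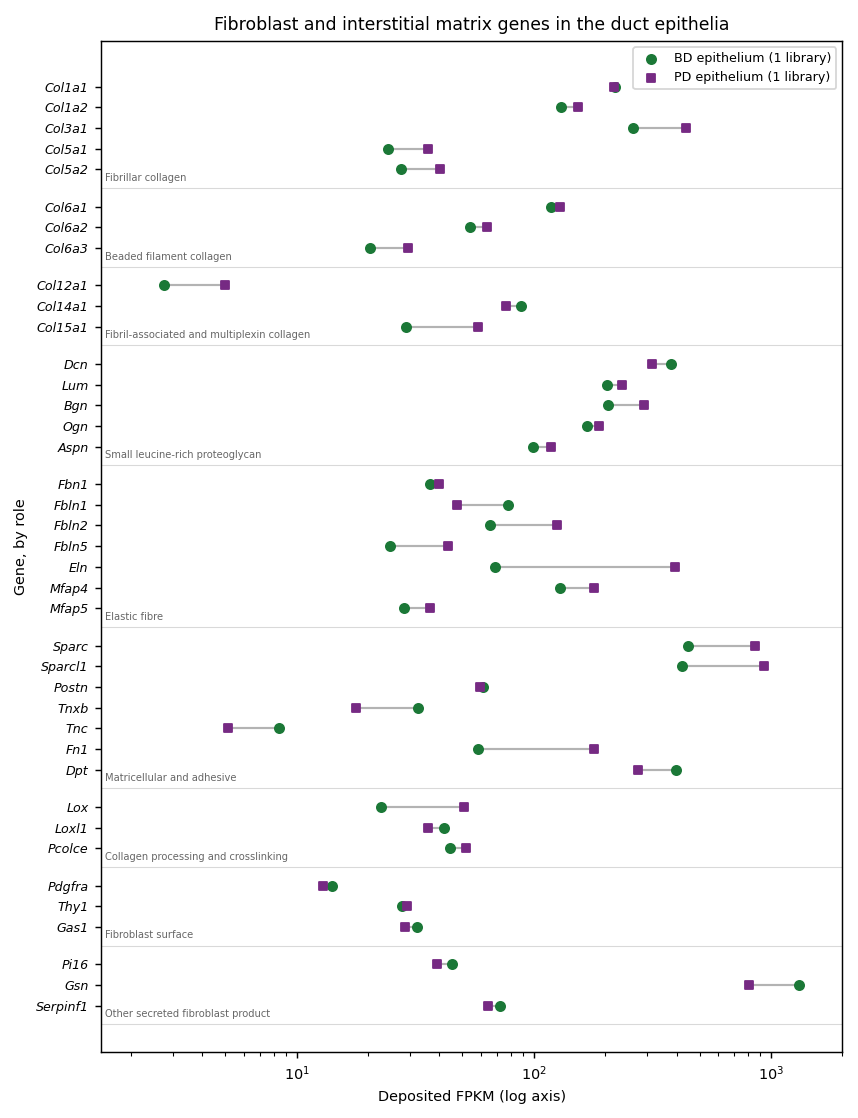
Deposited FPKM on a log axis of each of the 39 genes in bile duct epithelium (circles) and pancreatic duct epithelium (squares), 1 library each, grouped by role, with a line joining the values of a gene. Eln has the longest line, from 68.7 to 395, while Col1a1, Postn and Thy1 nearly coincide.

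Genes of the same pathway and of other cell kinds were taken from lists chosen by function. Among 22 procollagen assembly enzymes and chaperones, 0 were at least 2-fold apart in either direction, with a median of -0.27. Prolyl hydroxylase P4ha1 had 32.7 FPKM in BD and 29.5 in PD, its partner P4hb 249.7 and 212, and the collagen chaperone Serpinh1 239 and 236. Among 20 further fibroblast and stellate cell genes, 0 of the 19 that reached 1 FPKM were at least 2-fold apart, with a median of -0.07. They include Cd34 (47.6 and 64.3), Ly6a (356 and 346) and Clec3b (224 and 130.1). Of 23 further matrix genes, 2 were higher in BD and 3 in PD, and the calcification inhibitor Mgp had 355 and 679. The other matrix genes named by level were the growth factor binding protein Ltbp4, with 126 and 178, and Ecm1, with 102 and 81.2. Of 14 matrix metalloproteinases and inhibitors, 4 were higher in BD and 1 in PD, although Mmp2, the gelatinase of fibroblasts, had 72.1 and 77.5, and the inhibitors Timp2 and Timp3 had 198 and 221, and 56.8 and 105.7.

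Markers of other cell kinds also differed between the epithelia. All 14 epithelial genes were at least 2-fold higher in BD, with a median of 1.82, among them the keratins Krt8 (959 and 155), Krt18 (417 and 142) and Krt19 (432 and 83.8). Of 12 smooth muscle and pericyte genes, which were all at 1 FPKM or more in both epithelia, 5 were higher in PD and 0 in BD, with a median of -0.66. Acta2 had 1195 and 2428 FPKM, Myh11 247 and 496 and Actg2 244 and 236. Smooth muscle also makes elastin and fibronectin, and the part of these cells in the Eln and Fn1 values was not tested. The medians were -0.64 for 10 blood endothelial genes (2 higher in PD), 0.37 for 10 leukocyte genes (1 higher in PD), -0.61 for 8 Schwann cell genes (1 higher in PD), -0.80 for 7 mesothelial genes (1 higher in BD, 2 in PD) and -0.74 for 10 acinar genes (2 higher in PD). The highest genes of these lists by mean FPKM over BD and PD were Pecam1 (108 and 247), Vwf (80.3 and 111) and Cdh5 (70.9 and 102) in endothelium. In leukocytes they were Cd74 (654 and 344), Lyz2 (301 and 265) and Cd79a (10.8 and 45.1). For Schwann cells they included Cdh19 (18.6 and 32.5) and Mbp (16.2 and 26.03), and for mesothelium Gpm6a (18.02 and 31.4), Msln (14.6 and 26.9) and Upk3b (3.52 and 7.79). The acinar genes were Ctrb1 (7144 and 19661), Pnlip (2826 and 3521) and Cela1 (2682 and 2879.5).

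**Figure D3:**
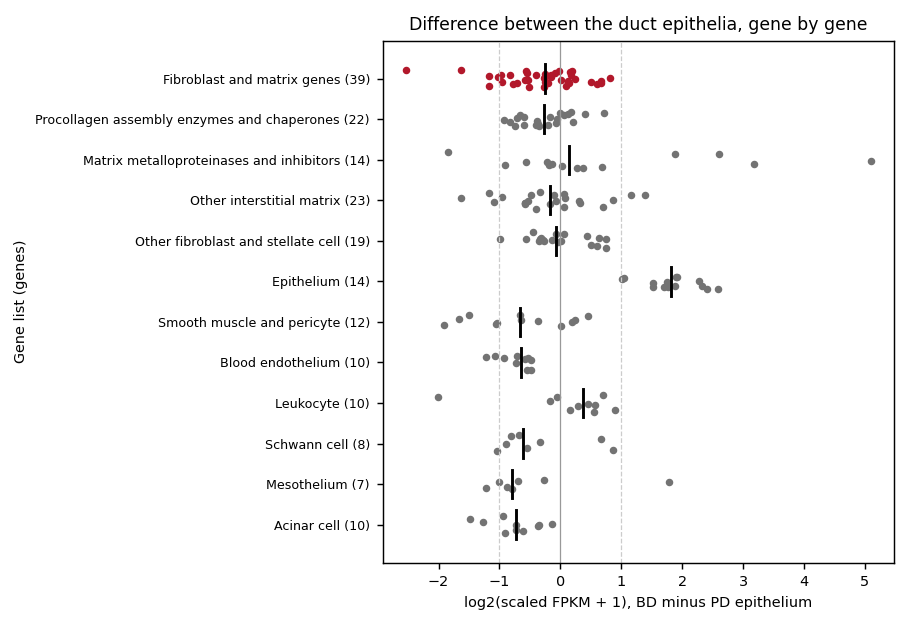
Difference between bile duct and pancreatic duct epithelium on the log2(scaled FPKM + 1) scale for each gene (point) of the 39 fibroblast and matrix genes and of 11 other lists, leaving out genes under 1 FPKM in both epithelia. Black bars are medians and dashed lines mark 2-fold. The fibroblast and matrix genes centre on -0.25 with Eln and Fn1 far to the left, while the epithelial genes all lie right of 1.

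The organoids were then compared with the epithelium they derive from, BDO with BD and PDO with PD, to see what was left of the fibroblast and matrix genes after culture. Nearly all were lower. In BDO 37 of the 39 were at least 2-fold lower than in BD with all 3 cultures on the same side, against 25.3% of 15727 genes, and 0 were higher (12.3% of genes). In PDO 38 were lower than in PD, against 24.3% of 15515 genes, and 0 were higher (14.7%). The same 37 genes were lower in both organs, where 2848 of 14701 genes (19.4%) were. The exceptions were Fbln2 in both organs and Fn1 in BDO.

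The median log2 difference of the 39 genes was -5.73 from BD to BDO and -5.78 from PD to PDO, against -0.04 and -0.03 over all genes. With the genes at 0 recovered reads in all 3 cultures set to their bound (4 in BDO, 3 in PDO, at 3 reads over the group), the medians were -5.91 and -5.93. Pi16, at 0 FPKM in all 3 BDO cultures, had no recovered reads and kept its difference of -5.73 there. The medians depend on the pseudocount, as the levels in culture were close to 0. With a pseudocount of 0.1, and no gene set to a bound, they were -8.35 and -8.55. For 29 of the 39 genes the mean organoid level was at most 1% of the epithelial level in both organs. The scaling moved the median of all genes, to 0.18 and 0.21 for FPKM as deposited, to 0.50 and 0.48 with each library brought to the same sum, and to -0.21 and -0.19 with a median ratio. It moved the lower genes as a share of all changed genes from 67.3% (BDO against BD) and 62.2% (PDO against PD) to 56.6% and 51.4% with FPKM as deposited, to 42.7% and 41.1% with the same sum, and to 74.2% and 69.2% with a median ratio. The 39 genes gave 37 lower in bile duct under each of these scalings and 36 to 38 lower in pancreatic duct.

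Most of the genes were at the edge of detection in culture. Of the 39, 30 were under 1 FPKM in all 6 organoids, 16 were under 0.1 FPKM in all 6, and 19 were at 0 in at least 1. Lum, Mfap4 and Mfap5 had 0 reads in every organoid. Against a floor of 3 reads over the 3 cultures of a group, Lum was at least 11249.5-fold higher in BD and at least 12796.5-fold higher in PD than in the organoids. For Mfap4 the bounds were 5595-fold and 7621-fold, and for Mfap5 2303-fold and 2912-fold. Dpt had 0 reads in the 3 BDO cultures, at least 15522-fold below BD, and 1 read in PDO1 alone. Eln had 1 read in BDO2 and 1 in PDO1, against 7164 in BD and 49387 in PD, and Sparcl1 had 5 reads and Postn 10 over all 6 cultures. Of the 37 genes for which reads could be recovered, 12 had at most 10 reads summed over the 6 organoids.

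The role groups are described by their highest organoid level and their median difference, which follows the epithelial level where little was left. The 5 fibrillar collagens reached at most 0.944 FPKM in an organoid, with median differences of -6.69 (bile duct) and -7.16 (pancreatic duct). The proteoglycans reached at most 2.37 FPKM, a value of Bgn, with medians of -7.54 and -7.81. The fibroblast surface genes had the smallest medians, -4.07 and -3.97, and started from the lowest epithelial levels of the groups by their highest gene. Pdgfra and Thy1 stayed at or under 0.0641 FPKM in every culture. After scaling Pdgfra was at 0.176% of BD and 0.207% of PD, and Thy1 at 0.0565% and 0.0754%. Gas1, the other surface gene, was at 6.87% and 16.4%. Col1a1 was at 0.191% and 0.149%, although its log2 differences were wider, -7.45 and -7.57. Col6a1 was at 0.206 to 0.666 FPKM in 5 cultures and at 8.36 in PDO2, where Col6a2 had 0.355 and Col6a3 0.0238. The Col6a1 to Col6a2 ratio was 2.21 in BD and 2.03 in PD. In culture it was 49.4, 6.84 and 2.41 in BDO1, BDO2 and BDO3 and 17.1, 23.5 and 4.99 in PDO1, PDO2 and PDO3, where Col6a2 had 2, 5 and 15 and 3, 52 and 8 reads.

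Other lists gave the setting. Of the genes that could be compared, 12 of 12 smooth muscle genes, 10 of 10 endothelial genes and 10 of 10 acinar genes were lower in organoids of both organs, and all 10 leukocyte genes in BDO and 9 of 9 in PDO. Of the further matrix genes 21 of 22 were lower in BDO and 21 of 23 in PDO, and of the further fibroblast genes 16 of 18 and 18 of 19. Ly6a, the highest of these fibroblast genes, had 51.8 to 322 FPKM in BDO and 221 to 808 in PDO. Its log2 differences were -1.45 and -0.009. Ecm1 kept 16.0 to 87.7 FPKM in culture, whereas Cd34 and Clec3b were at or under 0.823. The collagen-making machinery was kept in part. Of the procollagen enzymes 12 were lower and 2 higher in BDO, and 15 lower and 2 higher in PDO, and P4hb, which also serves as protein disulphide isomerase in any secreting cell, had 283 to 397 FPKM in culture. Serpinh1 had 5.15 to 41.2 FPKM and P4ha1 9.55 to 20.1. The epithelial list moved the other way, with 10 higher and 1 lower in BDO and 13 higher and 0 lower in PDO. Of the metalloproteinases and inhibitors, 10 were lower and 0 higher in BDO and 7 lower and 2 higher in PDO.

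The remaining lists were mixed. For Schwann cells 6 genes were lower and 0 higher in BDO, and 7 lower and 1 higher in PDO. For mesothelium 5 were lower and 1 higher in BDO, and 5 lower and 2 higher in PDO. Among the mesothelial genes Msln was higher, at 345 to 853 FPKM in culture. Msln is also made by some duct epithelia.

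A residue of at least 1 FPKM in at least 3 organoids was found for 6 of the 39 genes, against 75.3% of the 15092 genes that reached 1 FPKM in an epithelium. These were Fbln2, Fn1, Gsn, Gas1, Pcolce and Sparc. Fbln2, which encodes a fibulin of basement membranes and elastic fibres (ENSMUSG00000064080, chromosome 6, 91212455 to 91272540, plus strand), had 209.9, 77.6 and 69.8 FPKM in BDO1, BDO2 and BDO3, and 119.5, 359 and 46.5 in PDO1, PDO2 and PDO3. In deposited FPKM all 3 BDO cultures lay above the 65.5 of BD and PDO2 alone above the 125 of PD. After scaling BDO1 alone lay above BD, at 209.2 against 75.2, with BDO2 and BDO3 at 72.4 and 64.3. Its mean log2 difference was 0.40 in bile duct and -0.28 in pancreatic duct, both short of 2-fold. Both values moved with the scaling. In bile duct the difference was 0.67 for FPKM as deposited, 1.00 with each library brought to the same sum and 0.20 with a median ratio. In pancreatic duct it was 0.01, 0.28 and -0.48, so its sign turned. Without PDO2, which decides the value in pancreatic duct, all 39 genes were at least 2-fold lower there on the main scaling, Fbln2 included. With each library brought to the same sum, PDO1 also lay above PD for Fbln2, at 359.5 against 319.5.

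Fn1 had 165.7 FPKM in BDO1 against 3.29 and 4.30 in BDO2 and BDO3, and 188.9 in PDO2 against 22.3 and 11.6 in PDO1 and PDO3. BDO1 thus lay above the 58.4 FPKM of BD and the other BDO cultures far below it. The mean log2 difference was -2.18 in bile duct, without all cultures on the same side, and -2.54 in pancreatic duct. With FPKM as deposited PDO2 lay above PD, at 188.9 against 179.8, and with each library brought to the same sum at 583 against 460. Under these 2 scalings Fn1 was not counted as lower in PDO. Without BDO1, 38 genes were lower in bile duct, Fn1 included. In BDO1 alone, the culture left when BDO2 and BDO3 are taken out, 2 genes were at least 2-fold higher than in BD, Fbln2 and Fn1. In deposited FPKM, Fbln2 and Fn1 were the only 2 of the 39 genes that exceeded both epithelia in at least 1 organoid. For Fn1 that culture was PDO2, which after scaling stood at 87.9% of PD.

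The other 4 were kept at a small share of the epithelial level. Gsn had 23.1, 31.3 and 32.5 FPKM in BDO1, BDO2 and BDO3 and 48.2, 37.8 and 17.2 in PDO1, PDO2 and PDO3. This was 1.83% of BD and 3.50% of PD after scaling, although at 17.2 FPKM or more Gsn stayed well above the detection edge. Gas1 (ENSMUSG00000052957, chromosome 13, 60174405 to 60177365, minus strand) had 3.56, 1.27 and 3.10 in BDO and 5.55, 6.41 and 5.38 in PDO, 6.87% of BD and 16.4% of PD. Pcolce had 1.12, 2.02 and 2.204 in BDO and 2.45, 2.32 and 2.25 in PDO, 3.28% and 3.67%. Sparc had 0.237, 1.62 and 1.51 in BDO and 0.257, 3.08 and 1.75 in PDO, 0.204% and 0.161%. Pcolce therefore stayed between 1.12 and 2.45 FPKM, Gas1 was lowest in BDO2, and Sparc was low in BDO1 and PDO1. About 19.9% of the exon bases of Gas1 overlap Gm48488 on the other strand.

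**Figure D4:**
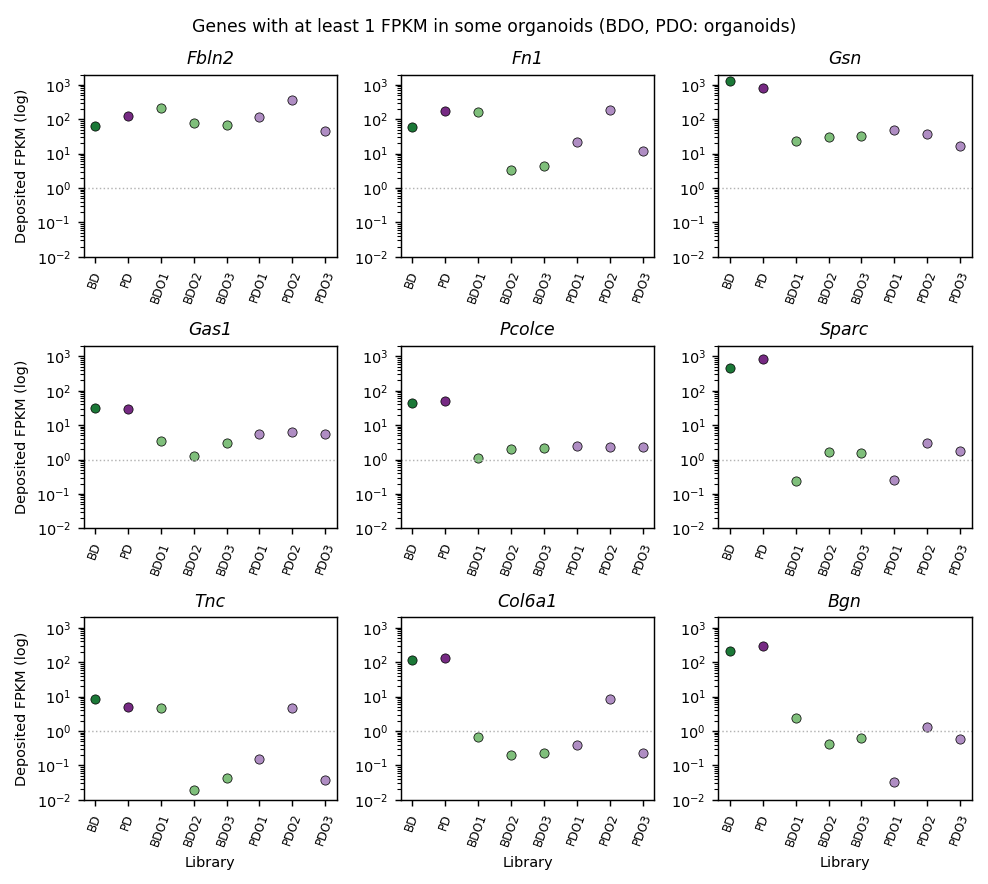
Deposited FPKM on a log axis in each of the 8 libraries for the 9 genes with at least 1 FPKM in 1 or more organoids (BDO1 to PDO3 are the organoid cultures). The dotted line marks 1 FPKM. Fbln2 runs from 46.5 to 359 FPKM in culture, Fn1 and Tnc are highest there in BDO1 and PDO2, and Gsn, Gas1 and Pcolce are below the epithelia in every culture.

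Some genes were high in 1 culture of each organ. BDO1 and PDO2 both lay above the other 4 organoids in 7 of the 36 genes that were above 0 in an organoid, against 11.7% of 26795 genes. This split was set after the values were seen, so the count only describes these genes. The 7 were Col6a1, Col6a3, Col12a1, Bgn, Fbln2, Tnc and Fn1. Tnc had 4.81 FPKM in BDO1 and 4.67 in PDO2 against 0.0193 to 0.150 in the others. After scaling BDO1 stood at 49.3% of BD and PDO2 at 76.0% of PD. The levels of Bgn were 2.37 in BDO1 and 1.27 in PDO2 against 0.0319 to 0.642. Col12a1 and Col6a3 stayed at or under 0.272 FPKM, and the Col6a3 values rest on 4 and 5 reads. Col12a1 had 73 reads in PDO2 but only 8 in BDO1, the same number as in PDO3. Some genes outside the 39, chosen after their values were seen, moved with this split. Vim, vimentin, had 2.37 FPKM in BDO1 and 28.5 in PDO2 against 0.401 to 1.03, and Mki67, a gene of dividing cells, had 23.6 and 18.5 against 31.2 to 66.8. Their part in the split was not tested.

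BDO2, BDO3 and PDO3 all lay above BDO1, PDO1 and PDO2 in 7 other genes, Col1a1, Col1a2, Col3a1, Col5a2, Dcn, Ogn and Fbln5, or 7 of 36 against 16.8% of genes, a share near that of all genes. This split too was set after the values were seen. The collagen reads were few but unequal. Col1a2 had 1, 192 and 202 reads in BDO1, BDO2 and BDO3 and 4, 16 and 237 in PDO1, PDO2 and PDO3. Col1a1 had 10, 96 and 88 reads and 11, 20 and 129, and Col3a1 had 8, 127 and 94 and 4, 12 and 127, in the same order of cultures. In FPKM none of these exceeded 0.944. Dcn had 1, 11 and 14 reads in BDO and 1, 0 and 21 in PDO. Lum, with 203 and 236 FPKM in the epithelia, and Mfap4, with 128 and 179, were close to or above the epithelial level of Col1a2, 131 and 153, but had 0 reads in the same cultures. Their exons are shorter, 2448 and 1922 bases against 12426, so the same FPKM gives fewer reads. In BD, Lum had 6388 reads and Mfap4 3177 against 20911 for Col1a2.

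Several other values moved with the same 3 cultures and were chosen after they were seen. Summed over Ddx3y, Eif2s3y, Kdm5d and Uty, which lie on the Y chromosome, BDO2, BDO3 and PDO3 had 9, 14 and 9 reads and the other 5 libraries 0. Xist, which is expressed from the inactive X chromosome of females, had 88.6, 89.1 and 81.3 FPKM in these 3 and 19.7 to 23.6 in the other 3 organoids. Mki67 had 66.8, 65.9 and 56.8 FPKM there against 18.5 to 31.2. The mesothelial genes Upk3b, Lrrn4, Wt1 and Gpm6a summed to 0.709, 0.605 and 0.835 FPKM against 0 to 0.0314. Of the rest of the 8 genes of that list, Upk1b followed the split, but Msln, Krt14 and Muc16 did not. Msln had 627, 853 and 345 FPKM in these 3 cultures against 347 to 782. Krt14 had 1.11, 1.14 and 1.31 against 1.28 to 17.6. The part of any of these genes in the collagen reads was not tested.

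**Figure D5:**
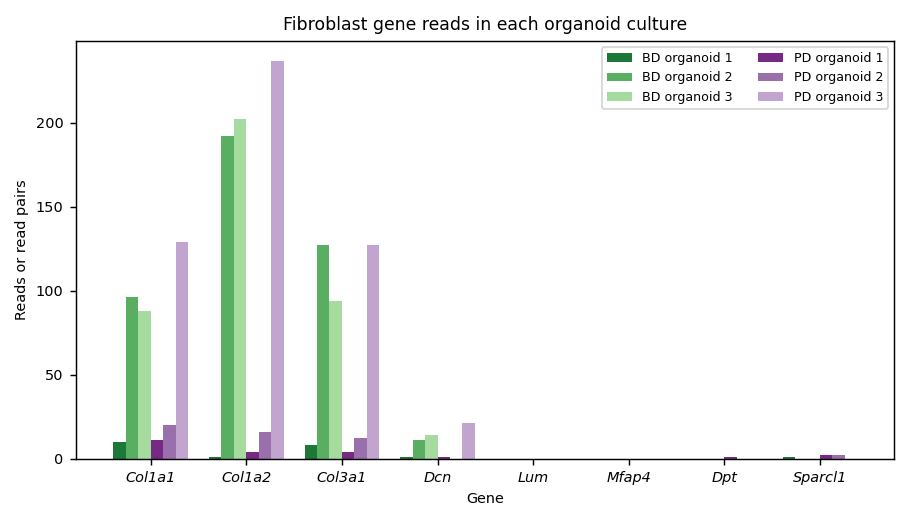
Reads recovered from FPKM (vertical axis, from 0) for 8 genes in the 6 organoid cultures (bars). Col1a1, Col1a2 and Col3a1 have 88 to 237 reads in BD organoids 2 and 3 and PD organoid 3 and at most 20 in the others, while Lum and Mfap4 have none.

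The organoid groups of the 2 organs were compared with limma, which has replicates on both sides. Of 12106 genes tested, 0 (0.00%) passed a Benjamini-Hochberg adjusted p of 0.05 and 305 (2.52%) had an unadjusted p under 0.05. The 6 retained genes could be tested and 0 passed. With voom on the recovered reads 0 of 10283 genes passed and 244 had an unadjusted p under 0.05. Fn1 had a BDO minus PDO log2 difference of -1.29 (SE 1.70), a value that moved with BDO1 and PDO2. It was -3.03 (SE 1.18) without BDO1, -0.11 (SE 1.73) without PDO2 and -1.85 (SE 0.36) without both, and ranged from -3.03 to -0.11 with any 1 culture left out. Without BDO1, and without both, all PDO values of Fn1 lay above all BDO values and its unadjusted limma p passed 0.05, with limma adjusted p = 0.575 and adjusted p = 0.4499. In these fits 1932 of 11924 genes and 2395 of 12246 genes likewise had all PDO values above all BDO values. An unadjusted limma p under 0.05 was found for 1017 and 1007 genes. Fbln2 differed by -0.27 (SE 0.83), Sparc by -0.27 (SE 0.50) and Gsn by -0.13 (SE 0.39), so with all cultures these 4 differences were smaller than their standard errors.

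With all cultures, Gas1 was the only gene of the 6 with an unadjusted p under 0.05. All 3 PDO values, 5.38 to 6.41 FPKM, lay above all 3 BDO values, 1.27 to 3.56. Its log2 difference was -0.95 (SE 0.29, limma adjusted p = 1.00). It was 1 of the 159 genes (1.31%) that were higher in PDO at an unadjusted limma p under 0.05, and without PDO2 its unadjusted p no longer passed 0.05. For Gsn, without PDO3 all PDO values lay above all BDO values and the unadjusted p passed 0.05, with a difference of -0.58 (SE 0.18, limma adjusted p = 0.941). In that fit 991 of 11844 genes likewise had all PDO values above all BDO values, and 428 genes had an unadjusted limma p under 0.05. Pcolce was also higher in every PDO culture than in any BDO culture, by 0.29 (SE 0.18, limma adjusted p = 1.00). With all cultures, groups that did not overlap with PDO higher were found for 3.21% of genes, and with BDO higher for 3.54%, among them 0 of the 6. The other 33 genes did not reach 1 FPKM in 3 cultures. Without that filter 36 of the 39 genes could be tested, all but the 3 at 0 in every organoid, and limma called 0 of them.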

How the data were processed

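Per the labels' protocols, the 8 libraries were built with the NEBNext Ultra kit from RNA bound to poly-T beads. The deposited values are FPKM in 1 table with 1 column per library, made by the authors. The unit was read from the values, since the file header names none. Bowtie2 2.2.3, HISAT2 2.1.0, TopHat2 and HTSeq 0.6.0 are named in the submitters' processing notes, without roles. The build and the use of strand are not given in the sources used here.

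FPKM times the merged GENCODE M21 (GRCm38) exon length was a whole number of reads, within 0.05, in all 8 libraries for 28266 genes (90.5%) and for 37 of the 39 genes described. Lox and Pi16 have other coordinates there and are given in FPKM only. Over all genes, 89.7% of values above 0 came out whole.

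Scaling used an unweighted trimmed mean of log ratios (30% of ratios and 5% of levels trimmed on each side) over genes with at least 1 FPKM in a library, across 8 libraries, or across the 6 organoids for BDO against PDO. That comparison used limma with an intensity trend on log2(FPKM + 1), for genes that reached 1 FPKM in 3 or more cultures, with Benjamini-Hochberg adjustment. For organoids against epithelium the mean of the 3 cultures was taken on the log scale. Calculations were tested on simulated data. All 39 genes are accounted for, and other lists by their counts and their 3 highest genes in the epithelia, 1 of which is not reported here. The genes and lists were chosen with earlier results of these data known. No organoid library was a copy of another. Alternatives covered scaling, pseudocount, filter, block, test and leaving out cultures. R 4.3.3, limma 3.58.1, Python 3.11.15, pandas 2.3.3, numpy 2.4.6, scipy 1.17.1 and matplotlib 3.10.9 were used.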

Additional observations from a re-analysis of the deposited data

How the results depend on the processing

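Each comparison was repeated with other scalings, pseudocounts of 0.1 and 0.5, other filters and each organoid left out, and 3 further sets of cultures were left out after seeing the data. On the main scaling, the genes at least 2-fold lower numbered 37 to 38 in bile duct and 38 to 39 in pancreatic duct with any single culture left out. They numbered 35 and 36 with a minimum of 10 FPKM. With BDO2 and BDO3 left out, 2 genes were at least 2-fold higher in BDO, where the count with all 3 cultures was 0. Genes kept in culture numbered 11 at 0.5 FPKM and 4 at 5 FPKM in place of 6 at 1 FPKM, and 6 with any single culture left out. Between the organoid groups limma called 0 of the fibroblast and matrix genes under every alternative. Over all genes it called 0 to 11 with a culture left out, the 11 without PDO3, and the cause was not tested.

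With the replicate number as a block limma called 0 genes and 284 had an unadjusted p under 0.05. Same-numbered cultures of the organs correlated in their deviations at -0.106, -0.441 and 0.480, so the numbers were not taken as pairs.

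The signs of the smaller differences between BDO and PDO turned. With a single culture left out, Sparc ranged from -0.740 to 0.121, Fbln2 from -1.01 to 0.502 and Gsn from -0.583 to 0.170. For Sparc the log2 difference was 0.0679 without BDO1, 0.121 without PDO2 and 0.461 without both. For Fbln2 it was 0.0422 without BDO3 and 0.502 without PDO2. For Gsn it was 0.170 without PDO1, 0.00957 without PDO2 and 0.125 without BDO1 and PDO2; the cause was not tested. Epithelia of 1 library each, and genes with a few reads in culture, limit what can be said of single genes.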
